A study of Homo sapiens with 37 samples.

Results

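7SL RNA is the RNA scaffold of the signal recognition particle, the ribonucleoprotein that carries ribosomes making secretory and membrane proteins to the endoplasmic reticulum (ER). Of the 60483 Ensembl gene IDs in each deposited count table, 5 stand for it here. They are 3 IDs taken here as the genes RN7SL1 (ENSG00000276168), RN7SL2 (ENSG00000274012) and RN7SL3 (ENSG00000278771), and a pair taken as 7SL pseudogenes, ENSG00000244642 and ENSG00000239437. The count tables hold IDs without names, so this naming comes from the rule by which the IDs were chosen and was not checked against an annotation. The 3 genes were chosen by name. The 2 pseudogene IDs were chosen by their measured values, because they led the IDs lost from the APEX-CBX1 pulldown relative to its input. Values that rest on the CBX1 libraries are therefore given as description, with no test.

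RNA was labelled in living HEK293T cells, an established human embryonic kidney line, with APEX, a peroxidase that attaches biotin-phenol to molecules near the protein it is fused to. Per the labels, cells received 500 µM biotin-phenol for 30 min and 1 mM H2O2 for 1 min, RNA was extracted with TRIzol, and biotinylated RNA was collected on streptavidin beads (the pulldown), with total RNA as input. The naive table holds unstressed cells with C1-APEX, here taken as the ER construct, APEX-CBX1, a fusion to a chromatin protein and so the nuclear construct, APEX-eIF4E and APEX-eIF4A, fusions to the cap-binding protein and the RNA helicase of translation initiation, and APEX-GFP, with 2 pulldowns and 2 inputs each. The stress table holds APEX-eIF4A cells labelled T0 (unstressed), T4 and T20 (heat shock; the unit of T is not given in the labels), and cells given hippuristanol, an inhibitor of eIF4A, or DMSO, its vehicle. T0, T20 and hippuristanol have 2 pulldowns and 2 inputs each, T4 has 1 of each, and DMSO has 2 pulldowns and 1 input. The sources used here do not give how the constructs were expressed, whether a line was a clone, or that replicates were grown as separate cultures. A p-value here sets a difference against the spread of these libraries alone, and that spread may be technical.

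The signal recognition particle binds a signal peptide as it leaves the ribosome, slows elongation, and docks at its receptor on the ER membrane, where the ribosome is handed to the translocon. Its RNA is transcribed by RNA polymerase III, assembled with most of its proteins in the nucleolus and exported to the cytoplasm, so that it is present in the nucleus, the cytosol and at the ER surface. The human genome carries the expressed genes RN7SL1 and RN7SL2, the closely related RN7SL3 and a large number of pseudogene copies, which differ in how alike they are to 7SL. The RefSeq gene table for GRCh38.p14 lists 684 symbols of the form RN7SL, number, P. It places RN7SL1 at chr14:49586580-49586878, RN7SL3 at chr14:49853616-49853914 and RN7SL2 at chr14:49862551-49862849. Each is a single annotated RNA of 299 bases classed as scRNA, and RN7SL3 and RN7SL2 lie 8636 bases apart. That table holds no Ensembl IDs, so positions of the pseudogene IDs, other 7SL pseudogenes, the proteins of the particle, ER and nuclear check RNAs and marker genes of HEK293T cells could not be looked up in these data.

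Total counts were 1718517 to 3276410 in the 10 naive pulldowns and 1419968 to 2629957 in the 10 naive inputs. In the stress table they were 707356 to 1221213 in the 9 pulldowns and 4540426 to 7782943 in the 8 inputs. Libraries of the same group differed by more than counting noise, with a chi-square per ID between 1.31 and 77.3 over 17 replicate pairs. The C1 pulldowns were the naive pair that differed most (9.20 per ID, against 3.28 to 4.97 in the other naive pulldown pairs), and the T0 inputs were the pair that differed most of all (77.3 per ID). Levels are given as counts scaled to a common library total, CPM, after TMM scaling, which corrects library totals for IDs that take a very different share in different libraries, and it was done within each table. In bulk libraries such as these, fewer cells and less RNA per cell cannot be told apart.

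RN7SL1 had 0 counts in all 37 libraries. A count of 0 allows a level of up to 0.759 to 2.95 CPM in the naive libraries and 0.300 to 7.17 CPM in the stress libraries, taking 3 counts as the limit and counting error only. How reads that match several near-identical copies were assigned is not given in the sources used here, so this is the number of reads assigned to the RN7SL1 ID and not a level of its RNA. The same holds for every 7SL value that follows, since the copies can share reads. RN7SL2, RN7SL3 and both pseudogene IDs passed the count filter in both tables, so 4 of the 5 IDs could be tested.

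In unstressed cells the 7SL IDs together took a smaller share of the pulldown than of the input for every construct. They held 0.0148% ± 0.00365 of all counts in the 10 pulldowns and 0.0644% ± 0.00570 in the 10 inputs (SD). The pulldowns ran from 0.00978% in a GFP library to 0.0210% in a C1 library, and the inputs from 0.0546% to 0.0743%. No pulldown reached the lowest input. Most of these counts belonged to the pseudogene IDs, and their pulldown levels lay furthest below the inputs. For CBX1 that loss is what picked the pseudogene IDs, so its libraries enter here as description only.

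RN7SL2, one of the expressed genes, was measured by few reads in the naive libraries, with 13 to 63 counts per pulldown and 19 to 73 per input. Its level averaged 15.8 ± 6.09 CPM in C1 pulldowns, 14.0 ± 2.75 in eIF4A pulldowns, 12.01 ± 3.47 in eIF4E pulldowns, 9.11 ± 2.94 in CBX1 pulldowns and 8.40 ± 2.94 in GFP pulldowns (SD, n = 2 each). Neighbours in that order overlapped in every case. In the 10 inputs RN7SL2 lay between 17.6 and 48.6 CPM with a median of 20.3, and C1 was the only construct in which a pulldown library (20.1 CPM) exceeded an input library of the same construct (19.9 CPM).

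In the eIF4E libraries RN7SL2 had 9.56 and 14.5 CPM in the pulldowns, against 19.5 and 48.6 CPM in the inputs. Both pulldowns lay below both inputs, and the second input stood well above the first. RN7SL2 fell by 1.51 on the log2 scale in the eIF4E pulldown (SE 0.38; edgeR quasi-likelihood test, adjusted p = 0.0248). The call was lost without eIF4E input replicate 2 (log2 fold change -0.66, adjusted p = 0.82 by edgeR), without eIF4E pulldown replicate 1 (-1.25, adjusted p = 0.43) and when library size replaced TMM (-0.61, adjusted p = 0.20). It was kept in 9 of 12 settings, with adjusted p between 0.00486 and 0.82.

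For the other constructs the change of RN7SL2 did not pass the threshold of 0.05. The log2 fold change of pulldown over input was -0.39 ± 0.40 for C1, -0.54 ± 0.39 for eIF4A and -1.24 ± 0.41 for GFP (SE; edgeR adjusted p = 0.59, 0.68 and 0.10). For CBX1 it was -1.24 ± 0.40 (SE), given as description.

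RN7SL3, the neighbouring gene of the same family, also had few counts, 18 to 93 per naive pulldown and 32 to 49 per naive input. In the C1 libraries it had 20.9 and 25.3 CPM in the pulldowns, against 22.8 and 25.5 CPM in the inputs. The ranges of the C1 pulldowns and inputs overlapped, and the log2 fold change was -0.05 ± 0.30 (SE; edgeR adjusted p = 0.94).

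In the other tested constructs every RN7SL3 pulldown value lay below every input value of the same construct. The eIF4E pulldowns had 13.2 and 10.7 CPM, against 27.1 and 24.0 CPM in the eIF4E inputs. The eIF4A pulldowns had 15.9 and 12.9 CPM, against 32.4 and 21.6 CPM in the eIF4A inputs. The GFP pulldowns had 8.75 and 13.5 CPM, against 21.8 and 20.6 CPM in the GFP inputs. These differences did not pass the test over all IDs, with log2 fold changes of -1.09 ± 0.31 for eIF4E, -0.85 ± 0.30 for eIF4A and -0.91 ± 0.31 for GFP (SE; edgeR adjusted p = 0.057, 0.17 and 0.11). For eIF4E the value passed in 3 of 12 settings, among them DESeq2. The CBX1 pulldowns had 24.2 and 17.6 CPM, against 30.8 and 29.1 CPM in the CBX1 inputs, a log2 fold change of -0.51 ± 0.28 (SE, not tested).

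Among naive pulldowns the order of RN7SL3 was C1 at 23.1 ± 3.12 CPM, CBX1 at 20.9 ± 4.67, eIF4A at 14.4 ± 2.12, eIF4E at 11.97 ± 1.79 and GFP at 11.2 ± 3.38 CPM (SD, n = 2 each). C1 overlapped CBX1. The 2 C1 and 2 CBX1 libraries lay above all 6 libraries of eIF4A, eIF4E and GFP, and those 3 constructs overlapped each other.

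**Figure D1:**
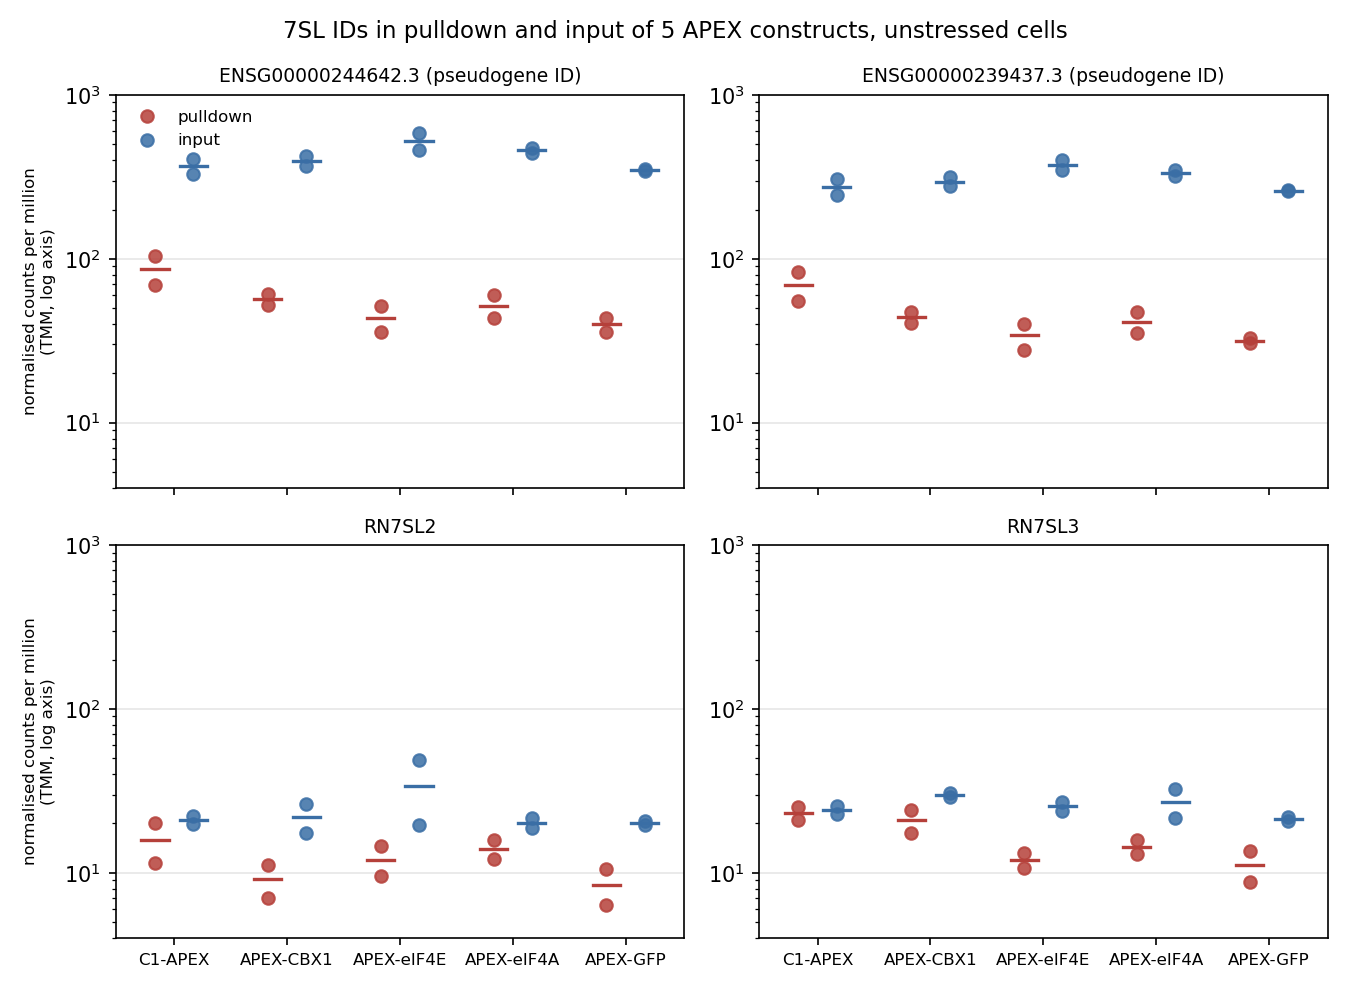
Level of each detected 7SL ID in the naive libraries, in TMM-scaled CPM on a log axis, by construct; points are libraries, short lines are means of the 2 libraries, red is pulldown and blue is input. The pseudogene IDs were lower in the pulldown of every construct, with 35.7 to 103.7 CPM for ENSG00000244642 in pulldowns, against 329.2 to 588.1 CPM in inputs, while RN7SL2 and RN7SL3 lay between 6.32 and 25.3 CPM in pulldowns, against 17.6 to 48.6 CPM in inputs.

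The pseudogene ID ENSG00000244642 carried the most counts of the 5 IDs in every naive library. Its level was 69.2 and 103.7 CPM in the C1 pulldowns, against 407.9 and 329.2 CPM in the C1 inputs. The eIF4E pulldowns had 35.7 and 51.8 CPM, against 461.6 and 588.1 CPM in the eIF4E inputs. Pulldowns and inputs were separated by a wide gap, and the C1 pulldowns stood nearest to their inputs.

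The other constructs showed the same separation for ENSG00000244642. The eIF4A pulldowns had 59.97 and 43.5 CPM, against 441.9 and 475.3 CPM in the eIF4A inputs. The GFP pulldowns had 35.99 and 43.7 CPM, against 352.7 and 345.3 CPM in the GFP inputs. The CBX1 pulldowns had 60.9 and 52.4 CPM, against 424.5 and 368.8 CPM in the CBX1 inputs, which is the contrast by which this ID was picked.

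Tested in the constructs that did not enter the choice, ENSG00000244642 fell in the pulldown of all 4. It was 11.9-fold lower in the eIF4E pulldown (log2 fold change -3.57 ± 0.20), 8.84-fold lower in the eIF4A pulldown (-3.14 ± 0.19), 8.73-fold lower in the GFP pulldown (-3.13 ± 0.20) and 4.24-fold lower in the C1 pulldown (-2.08 ± 0.19; SE throughout). The edgeR adjusted p was 6.7e-13 for eIF4E, 8.4e-12 for eIF4A, 3.4e-11 for GFP and 5.4e-08 for C1, and each call was kept in 12 of 12 settings. When library size replaced TMM, the log2 fold changes of eIF4E and eIF4A were -2.69 and -2.34, while the median of all tested IDs moved to 0.89 and 0.82. For CBX1 the log2 fold change was -2.80 ± 0.19 (SE, not tested).

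ENSG00000239437 followed the first pseudogene ID closely. Its log2 fold change of pulldown over input was -3.45 ± 0.19 for eIF4E, -3.01 ± 0.18 for eIF4A, -3.03 ± 0.20 for GFP and -1.97 ± 0.18 for C1 (SE; edgeR adjusted p = 6.7e-13, 8.4e-12, 3.4e-11 and 5.4e-08), and -2.75 ± 0.18 for CBX1 (not tested). The log2 levels of both pseudogene IDs correlated at r = 0.9996 over the 20 naive libraries, at 0.994 within the 10 pulldowns and at 0.992 within the 10 inputs. These points share library and depth, and the IDs may share reads, so the correlation is given as description. The ratio of the first ID's counts to the second's stayed between 1.17 and 1.33 in naive pulldowns and between 1.33 and 1.46 in naive inputs. The pair is therefore not counted as separate evidence.

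Read against all tested IDs, the count of 7SL IDs called lower was 3 of 4 for eIF4E, where 1.29% of 12427 IDs were called lower. It was 2 of 4 for eIF4A, GFP and C1, where 1.02%, 2.09% and 3.56% of IDs were called lower. The called IDs were the 2 pseudogene IDs in each construct and RN7SL2 in eIF4E. The pseudogene pair may share reads, so these counts do not weigh separate IDs. Both were picked for loss from the CBX1 pulldown, so the share of all IDs is not a like background for them. The median log2 fold change over all tested IDs lay between 0 and 0.02 in these comparisons. Summed to a single feature, the 7SL counts gave a log2 fold change of -3.23 for eIF4E, -2.83 for GFP, -2.79 for eIF4A, -2.51 for CBX1 and -1.82 for C1.

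**Figure D2:**
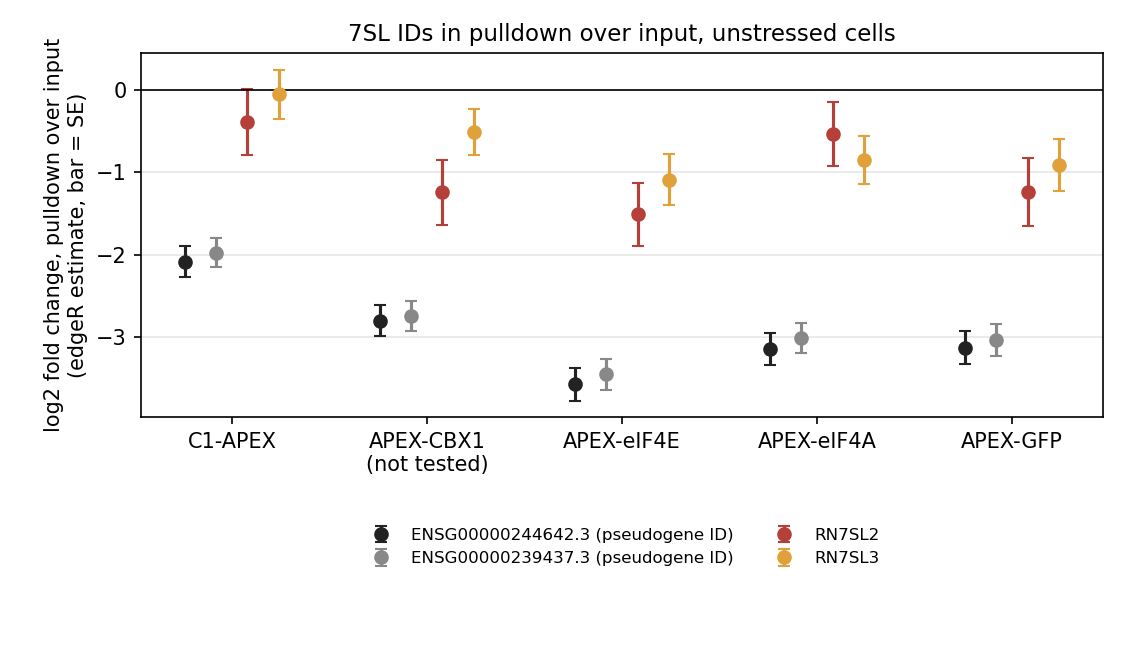
Log2 fold change of pulldown over input for each detected 7SL ID in the 5 naive constructs, as estimated by edgeR; bars are standard errors and the line at 0 marks equal levels. The pseudogene IDs lie at -2.08 and -1.97 for C1 and between -2.75 and -3.57 for the other constructs, while RN7SL2 and RN7SL3 lie between -1.51 and -0.05.

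The next comparison set the ER construct against eIF4E, eIF4A and the untargeted GFP, taken here as the cytosolic constructs. It asked whether they differed in how much 7SL RNA a pulldown held relative to its own input. The pseudogene IDs were less depleted by C1 than by eIF4E, and the test of that difference passed. The log2 difference was 1.49 ± 0.26 for ENSG00000244642 and 1.47 ± 0.26 for ENSG00000239437 (SE; edgeR adjusted p = 0.0053 and 0.0049). RN7SL2 differed by 1.12 ± 0.55 and RN7SL3 by 1.04 ± 0.43 (SE; edgeR adjusted p = 0.53 and 0.44), so 2 of 4 IDs were called, where 0.217% of all tested IDs were called. Both called IDs belong to the pseudogene pair, which may share reads and is not counted as separate evidence. The value of RN7SL2 was 0.23 without eIF4E input replicate 2, 0.60 without C1 pulldown replicate 2 and 1.59 without eIF4E input replicate 1, and that of RN7SL3 ran from 0.34 to 1.16 over all settings. The calls of the pseudogene IDs were lost when library size replaced TMM (0.76 and 0.75, where the median of all tested IDs moved to -0.72), with only the libraries compared in the fit (1.502 and 1.49), without C1 input replicate 2 (1.32 and 1.30), without eIF4E input replicate 2 (1.24 and 1.30) and without eIF4E pulldown replicate 1 (1.23 and 1.22). They were kept in 12 of 17 settings. Of the poorly matched C1 pulldown pair, leaving out replicate 1 gave a difference of 1.71 for ENSG00000244642 (edgeR adjusted p = 3.4e-05), and leaving out replicate 2 gave 1.11 (adjusted p = 0.0047).

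Against GFP and eIF4A the same C1 libraries gave smaller differences than against eIF4E for every ID, and none passed in edgeR. The log2 difference of C1 over GFP was 1.04 ± 0.27 for ENSG00000244642, 1.06 ± 0.27 for ENSG00000239437, 0.85 ± 0.58 for RN7SL2 and 0.86 ± 0.43 for RN7SL3 (SE; edgeR adjusted p from 0.30 to 0.73). No 7SL ID was called, where 0% of all tested IDs were called. An unadjusted edgeR p under 0.05 was found for 2 of 4. The share of all tested IDs with such a p, or called by DESeq2, is not given here or below. Those counts therefore have no background. The log2 difference of C1 over eIF4A was 1.06 ± 0.26, 1.04 ± 0.25, 0.14 ± 0.55 and 0.80 ± 0.42 in the same order of IDs (SE; edgeR adjusted p from 0.16 to 0.96). Here 0 of 4 were called by edgeR, where 0.121% of all tested IDs were called by edgeR. DESeq2 called 2 of 4, and 2 of 4 had an unadjusted edgeR p under 0.05. The 3 comparisons share the C1 libraries, so they are not separate evidence on C1.

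Without C1 pulldown replicate 1 both pseudogene IDs were called in C1 over GFP (1.28 and 1.30) and in C1 over eIF4A (1.30 and 1.27). The level of the C1 pulldowns relative to the others also depended on scaling. In TMM-scaled CPM both C1 pulldowns (69.2 and 103.7 for ENSG00000244642) lay above the other 8 naive pulldowns (35.7 to 60.9). As an unscaled share of all counts, the 7SL IDs held 0.0163% in C1 pulldown replicate 1, below CBX1 pulldown replicate 1 (0.0184%), eIF4A pulldown replicate 1 (0.0168%) and eIF4E pulldown replicate 2 (0.0165%).

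For the pseudogene IDs the estimates of the nuclear construct lay between those of C1 and those of eIF4A, GFP and eIF4E. The libraries did not separate it from eIF4A. For ENSG00000244642 the CBX1 pulldowns had 60.9 and 52.4 CPM, against 59.97 and 43.5 CPM in the eIF4A pulldowns. C1 over CBX1 gave log2 differences of 0.72 ± 0.26 and 0.77 ± 0.25 for the pseudogene IDs, 0.85 ± 0.56 for RN7SL2 and 0.46 ± 0.41 for RN7SL3. CBX1 over GFP gave 0.32 ± 0.27 and 0.29 ± 0.26 for the pseudogene IDs, 0.00 for RN7SL2 and 0.41 ± 0.42 for RN7SL3 (SE throughout). That RN7SL2 value has no SE here, because SEs were derived from the fold change and are unreliable near 0. These values use the contrast by which the pseudogene IDs were picked and carry no test.

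Among the cytosolic constructs no 7SL ID was called. The counts were 0 of 4 for eIF4E over GFP, for eIF4A over GFP and for eIF4A over eIF4E (edgeR), where 0% of all tested IDs were called, and 0 of 4 had an unadjusted edgeR p under 0.05 in each. The 4 log2 differences ran from -0.45 to -0.18 for eIF4E over GFP, from -0.02 to 0.70 for eIF4A over GFP and from 0.24 to 0.98 for eIF4A over eIF4E, with standard errors of 0.26 to 0.57. A p above the threshold does not show that these constructs labelled 7SL RNA alike.

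The make-up of the 7SL counts within a library needs no scaling between libraries, and it differed between pulldown and input. In the naive pulldowns RN7SL2 made up 5.97% to 12.3% of the 7SL counts, against 2.27% to 4.57% in the naive inputs. RN7SL3 made up 9.14% to 16.9% in the naive pulldowns, against 2.25% to 4.20% in the naive inputs. The ranges of pulldowns and inputs did not overlap for either gene in any construct. Most 7SL counts were those of the pseudogene IDs, which were picked by their loss from the CBX1 pulldown. The CBX1 shares here and below rest on that choice and are given as description. Per count of RN7SL2, the pseudogene IDs had 6.36 to 13.3 counts in naive pulldowns, against 20.4 to 41.6 in naive inputs. These shares are of reads as assigned and are not levels per length.

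By construct, the share of RN7SL2 in the pulldown was 11.7% ± 0.91 for eIF4E, 11.5% ± 0.11 for eIF4A, 9.09% ± 1.91 for GFP, 7.999% ± 0.93 for C1 and 6.89% ± 1.30 for CBX1 (SD, n = 2 each). The share of RN7SL3 was highest in the CBX1 pulldown at 15.9% ± 1.38, and lay between 11.96% and 12.2% as a mean in the other 4. The 4 libraries of eIF4E and eIF4A lay above the other 6 pulldowns for RN7SL2. For RN7SL3 the first CBX1 library lay above all others, and the second (14.9%) lay below an eIF4E library (15.3%).

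**Figure D3:**
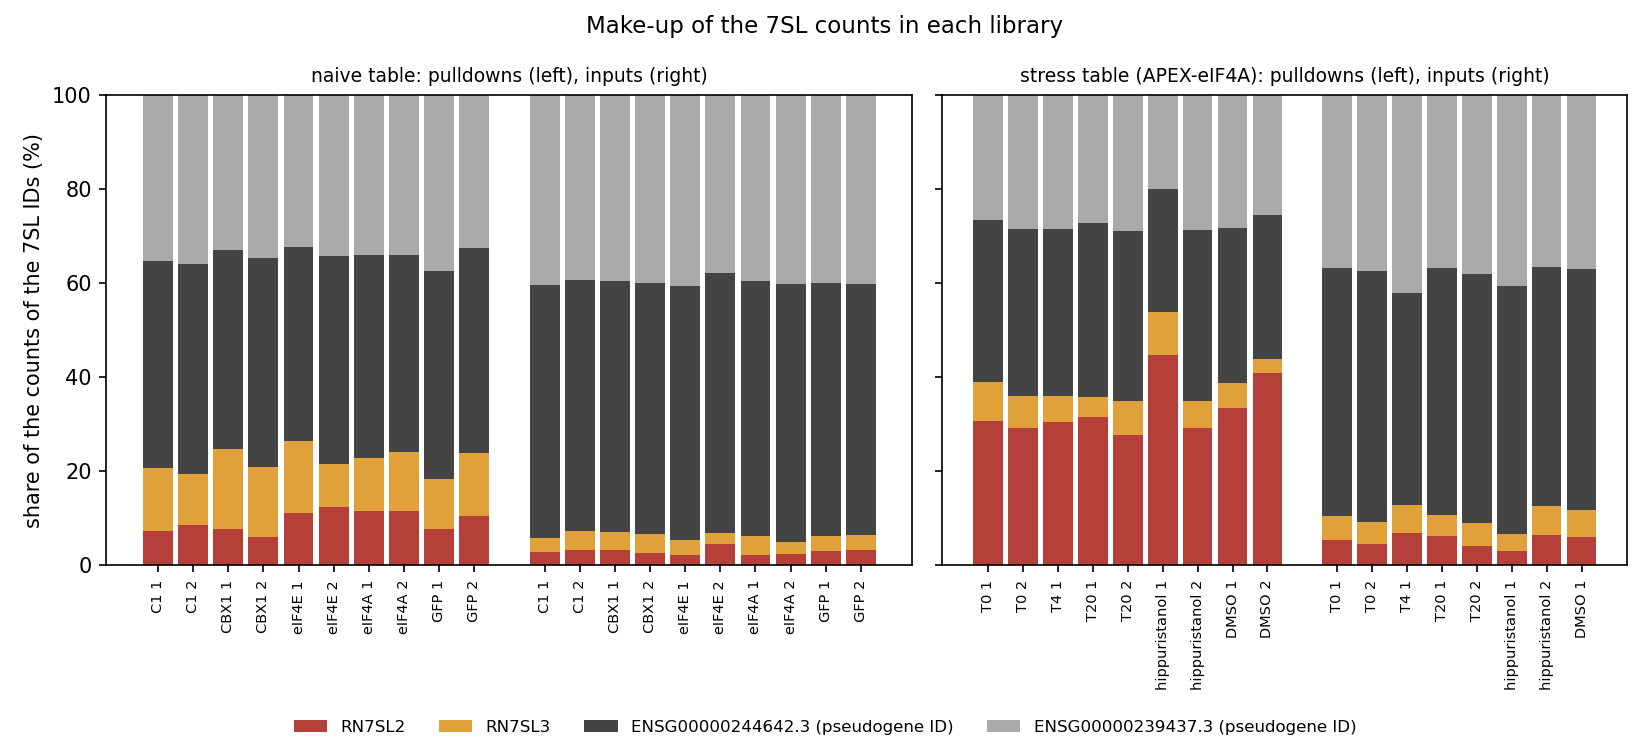
Share of each detected 7SL ID in the 7SL counts of every library, in percent, with pulldowns to the left of inputs in each panel; each bar is 1 library, named by construct or condition and replicate. RN7SL2 and RN7SL3 took more of the bar in pulldowns than in inputs in the naive table, and RN7SL2 alone took 27.8% to 44.6% of the stress-table pulldowns, against 3.10% to 6.81% of the stress-table inputs.

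In the stress table every library came from APEX-eIF4A cells. In the T0 libraries RN7SL2 had 545.9 and 1448 CPM in the pulldowns, against 200.4 and 678.8 CPM in the inputs. For ENSG00000244642 the T0 pulldowns had 608.7 and 1761 CPM, against 1929 and 7995 CPM in the T0 inputs. The ranges of pulldowns and inputs overlapped for RN7SL2, while both T0 pulldowns lay below both T0 inputs for ENSG00000244642.

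RN7SL3 had 146.6 and 344.1 CPM in the T0 pulldowns, against 182.3 and 706.5 CPM in the T0 inputs, and these ranges overlapped. The log2 fold change of T0 pulldown over input was 1.18 ± 0.56 for RN7SL2, -0.86 ± 0.58 for RN7SL3, -2.07 ± 0.60 for ENSG00000244642 and -1.88 ± 0.58 for ENSG00000239437 (SE; edgeR adjusted p from 0.28 to 0.61). None of the 4 was called, where 0.36% of 16678 tested IDs were called. An unadjusted edgeR p under 0.05 was found for 3 of 4, a count with no background. Both T0 libraries numbered 2 stood far above those numbered 1 for each of these IDs. Within each number RN7SL2 was higher in the pulldown than in the input, and RN7SL3 and both pseudogene IDs were lower. The fit did not pair libraries by number, so leaving out 1 T0 library unbalances the numbers. Without T0 input replicate 2 the value of ENSG00000244642 was -0.70, and without T0 input replicate 1 it was -2.75. RN7SL2 was 2.32 and RN7SL3 0.43 without T0 input replicate 2, RN7SL2 was 0.55 without T0 input replicate 1, and RN7SL2 was 0.29 without T0 pulldown replicate 2. The median log2 fold change of pulldown over input of all tested IDs was -0.55 at T0, -0.29 at T20 and -0.36 with hippuristanol, so values in these 3 comparisons sit against a shifted background.

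The T4 libraries, 1 of each fraction and so without a replicate check, had 506.0 CPM of RN7SL2 in the pulldown, against 391.7 CPM in the input. The same T4 libraries had 586.8 CPM of ENSG00000244642 in the pulldown, against 2590 CPM in the input, and 92.7 CPM of RN7SL3 in the pulldown, against 347.9 CPM in the input. RN7SL2 made up 30.5% of the 7SL counts of the T4 pulldown (95% Wilson interval 28.0% to 33.1%), against 6.81% of the T4 input (6.57% to 7.05%).

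At T20 RN7SL2 had 298.8 and 289.5 CPM in the pulldowns, against 439.7 and 137.2 CPM in the inputs, so the pulldowns lay between the inputs. RN7SL3 had 40.5 and 75.8 CPM in the T20 pulldowns, against 311.7 and 166.5 CPM in the T20 inputs. ENSG00000244642 had 348.1 and 376.1 CPM in the T20 pulldowns, against 3659 and 1761 CPM in the T20 inputs. Both RN7SL3 and the pseudogene ID were lower in every T20 pulldown than in every T20 input. The log2 fold changes were 0.03 ± 0.56 for RN7SL2, -2.03 ± 0.60 for RN7SL3, -2.90 ± 0.62 for ENSG00000244642 and -2.78 ± 0.60 for ENSG00000239437 (SE; edgeR adjusted p = 0.999, 0.21, 0.080 and 0.072). None was called by edgeR, where 0.372% of all tested IDs were called by edgeR. DESeq2 called both pseudogene IDs, and 3 of 4 IDs had an unadjusted edgeR p under 0.05. Neither of these counts has a background.

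With hippuristanol RN7SL2 had 424.4 and 167.7 CPM in the pulldowns, against 45.1 and 60.7 CPM in the inputs. Both pulldowns exceeded both inputs, and the log2 fold change was 2.48 ± 0.59 (SE; edgeR adjusted p = 0.098). DESeq2 called it (log2 fold change 2.67, adjusted p = 0.019), and so did edgeR with no count filter (2.55). The vehicle libraries also had more RN7SL2 in the pulldown, 208.1 and 301.3 CPM, against 55.2 CPM in the single DMSO input. ENSG00000244642 had 248.0 and 209.4 CPM in the hippuristanol pulldowns, against 766.2 and 475.1 CPM in the hippuristanol inputs, a log2 fold change of -1.44 ± 0.59 (SE; edgeR adjusted p = 0.84). None of the 4 was called by edgeR, where 0.252% of all tested IDs were called. An unadjusted edgeR p under 0.05 was found for 3 of 4, again with no background. RN7SL3 had 88.2 and 33.5 CPM in the hippuristanol pulldowns, against 52.0 and 58.1 CPM in the inputs, and its log2 fold change was 0.13 ± 0.59 (SE; edgeR adjusted p = 1). The RN7SL3 pulldown values lay on either side of the inputs. Summed to a single feature, the 7SL counts gave -0.65 in this comparison.

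**Figure D4:**
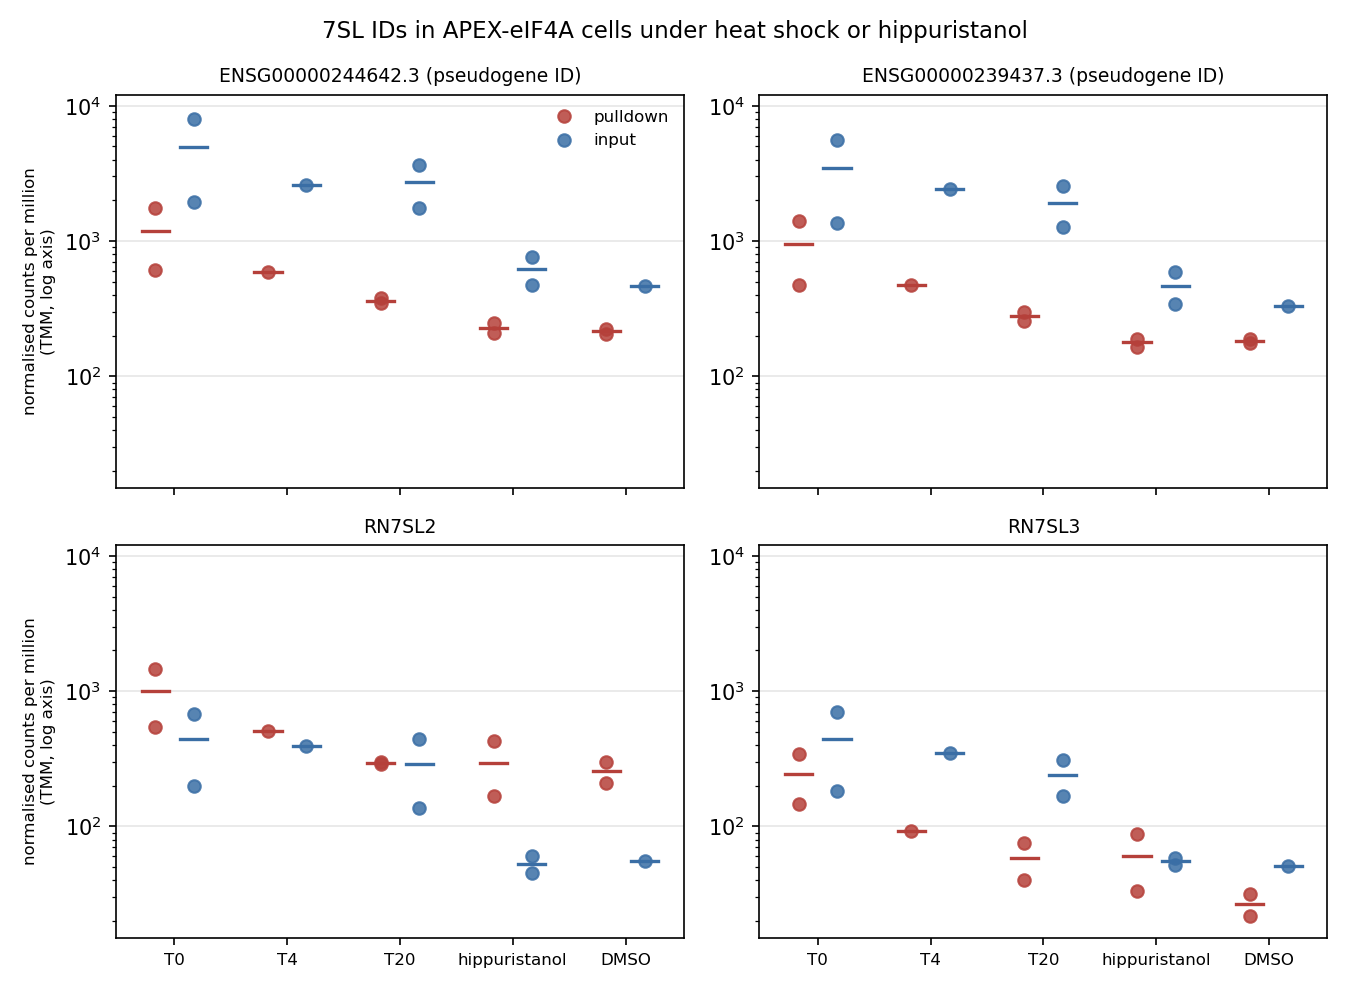
Level of each detected 7SL ID in APEX-eIF4A libraries of the stress table, in TMM-scaled CPM on a log axis; points are libraries, short lines are means where there are 2 libraries, red is pulldown and blue is input. RN7SL2 reached 424.4 and 167.7 CPM in hippuristanol pulldowns, against 45.1 and 60.7 CPM in their inputs. With DMSO it had 208.1 and 301.3 CPM in pulldowns, against 55.2 CPM in the single input. ENSG00000244642 was lower in every pulldown than in every input of the same condition.

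Within libraries of the stress table, RN7SL2 made up 27.8% to 44.6% of the 7SL counts in the 9 pulldowns, against 3.10% to 6.81% in the 8 inputs. RN7SL3 made up 2.95% to 9.28% in the stress pulldowns, against 3.58% to 6.20% in the stress inputs, so its ranges overlapped. RN7SL2 and RN7SL3 have the same annotated length, and their count ratio was 3.72 to 13.9 in the stress pulldowns, against 0.824 to 1.41 in the stress inputs. In the naive table that ratio was 0.40 to 1.35 in pulldowns and 0.576 to 2.03 in inputs.

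The naive table and the T0 libraries both hold unstressed APEX-eIF4A cells, which allows the same quantity to be read in separate libraries. RN7SL2 made up 30.8% (95% Wilson interval 28.2% to 33.5%) and 29.1% (27.2% to 31.1%) of the 7SL counts in the T0 pulldowns, against 11.5% (9.06% to 14.4%) and 11.6% (8.68% to 15.4%) in the naive eIF4A pulldowns. In the inputs RN7SL2 made up 5.47% and 4.53% at T0, against 2.29% and 2.50% in the naive eIF4A inputs. The intervals cover counting error only. The pulldown shares of the tables do not overlap, and what else differed between the tables was not tested.

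Heat shock was then compared within each fraction. For all 4 detected 7SL IDs both T20 pulldowns lay below both T0 pulldowns, with log2 fold changes of -1.76 ± 0.57 for RN7SL2, -2.07 ± 0.61 for RN7SL3, -1.71 ± 0.59 for ENSG00000244642 and -1.75 ± 0.58 for ENSG00000239437 (SE; edgeR adjusted p = 0.16, 0.14, 0.20 and 0.18). None was called by edgeR, where 0.144% of all tested IDs were called by edgeR. DESeq2 called RN7SL3, and 4 of 4 had an unadjusted edgeR p under 0.05. The share of all tested IDs is not given for either of these measures. Without T0 pulldown replicate 2 the values were -0.89 for RN7SL2, -1.33 for RN7SL3 and -0.75 for both pseudogene IDs, so the size depended on that library. The DMSO pulldowns lay below the T20 pulldowns for RN7SL3 and both pseudogene IDs, and overlapped them for RN7SL2. For ENSG00000244642 they had 204.8 and 225.4 CPM, against 348.1 and 376.1 CPM at T20.

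In the inputs the log2 fold change of T20 over T0 was -0.61 ± 0.55 for RN7SL2, -0.89 ± 0.57 for RN7SL3, -0.87 ± 0.58 for ENSG00000244642 and -0.86 ± 0.56 for ENSG00000239437 (SE; edgeR adjusted p = 1 for each). No 7SL ID was called and 0 of 4 had an unadjusted edgeR p under 0.05, where 0.042% of all tested IDs were called. Without T0 input replicate 2 the sign of all 4 turned, with values of 0.53, 0.39, 0.49 and 0.51. After correction for input, the 4 differences of T20 over T0 ran from -1.17 to -0.84 with standard errors of 0.79 to 0.82. None was called by edgeR, 0 of 4 had an unadjusted edgeR p under 0.05, and 0% of all tested IDs were called.

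Hippuristanol was compared with DMSO in the pulldowns. RN7SL2 had 424.4 and 167.7 CPM with hippuristanol, against 208.1 and 301.3 CPM with DMSO, so the DMSO values lay between the hippuristanol values. RN7SL3 had 88.2 and 33.5 CPM with hippuristanol, against 31.9 and 21.7 CPM with DMSO, and both hippuristanol pulldowns were higher. The log2 fold change was 0.21 ± 0.56 for RN7SL2, 1.16 ± 0.63 for RN7SL3, 0.09 ± 0.58 for ENSG00000244642 and -0.03 ± 0.57 for ENSG00000239437 (SE; edgeR adjusted p from 0.39 to 1). None was called by edgeR, 0 of 4 had an unadjusted edgeR p under 0.05, and 0% of all tested IDs were called. The single DMSO input had 55.2 CPM of RN7SL2, near the hippuristanol inputs and below both DMSO pulldowns.

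The levels of the T series stood above those of the drug series in inputs. ENSG00000244642 had 766.2 and 475.1 CPM in the hippuristanol inputs and 464.6 CPM in the DMSO input, where the 5 inputs of T0, T4 and T20 had 1761 to 7995 CPM. As a share of all counts the 7SL IDs held 0.171% and 0.120% of the hippuristanol inputs and 0.111% of the DMSO input, where the T0, T4 and T20 inputs held 0.401% to 1.28%. The T0 input numbered 2 was the highest of all 37 libraries at 1.28%.

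The IDs whose level across the 20 naive libraries was most like that of RN7SL2 were ENSG00000182899.13 (Pearson r = 0.88) and ENSG00000265735.2 (r = 0.86), among 2097 IDs whose log2 CPM averaged 5 or more. The ranking leaves out only the 5 IDs studied here. The ranked IDs have no names in these data, so other 7SL copies may be among them. Counts of such copies are not part of the 7SL counts and shares given here. RN7SL2 itself correlated at 0.83 with both pseudogene IDs and at 0.65 with RN7SL3. Among the ranked IDs, ENSG00000265735.2 was also the one most like ENSG00000244642, at r = 0.995 in the naive table and 0.95 over the 17 stress libraries. That was read after its values were seen. The log2 CPM of ENSG00000265735.2 averaged 9.23 in the naive table, against 7.22 for ENSG00000244642, and 11.9 against 9.56 in the stress table. Whether it is a 7SL copy was not tested, and the 7SL counts and shares here do not include it. In the stress table the 2 IDs most like RN7SL2 were others, at r = 0.990 and 0.989. These correlations hold the gap between pulldowns and inputs, the libraries share depth and scaling between IDs, and no p is given. RN7SL1, with no counts, had no such IDs.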

How the data were processed

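The deposited values are whole-number read counts per versioned Ensembl gene ID. Per the submitters' processing notes, the authors made these counts with cutadapt, HISAT2 and featureCounts on GRCh38. Their versions, whether strand was used, and how reads matching more than 1 copy were counted are not stated in the labels, so all 7SL counts are uncertain in that respect.

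Groups come from sample titles. For hippuristanol inputs the title was followed over a stress label of heat shock, and a column name shared by 2 samples' descriptions was settled by the table it stands in. Each table was fitted separately in edgeR 4.0.16 (R 4.3.3): filterByExpr by group, TMM, estimateDisp, glmQLFit (robust) and glmQLFTest (2-sided), fitting 1 mean for every group. This left 12427 IDs in the naive and 16678 in the stress table. Adjusted p is Benjamini-Hochberg over all tested IDs, and an ID is called at an adjusted p under 0.05. Input-adjusted comparisons are differences of pulldown-over-input contrasts. Standard errors were obtained as the absolute log2 fold change over the square root of the F statistic, which is unreliable for values near 0. Correlations used log2 CPM with a prior count of 2. Alternatives were library size or upper quartile in place of TMM, scaling without the 10 highest other IDs, no count filter, a replicate block, only the libraries compared, no input correction, each library left out, DESeq2 1.42.0, and the 7SL IDs summed. The fit was tested on simulated counts.

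Over IDs whose log2 CPM averaged 5 or more, same-numbered pulldowns and inputs did not deviate together (correlations of -0.07 to 0.14 over 8 groups). Same-numbered T20 and T0 inputs deviated in opposite directions (-0.70). Numbers were not taken to pair libraries, although the 7SL IDs rose together with the number at T0. The replicate block was 1 coefficient shared by all groups, so it does not model pairing within a condition. No replicate pair held identical values. All 5 members are named, with the 2 IDs most like RN7SL2. Gene lists for the particle's proteins, the translocon, RNA polymerase III RNAs, compartments and cell type markers could not be applied, since 0 Ensembl IDs matched the RefSeq gene table. No 7SL sequence was used here. The members and lists were chosen with earlier results of these data known.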

Additional observations from a re-analysis of the deposited data

Results flagged for a closer look

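The depletion of both 7SL pseudogene IDs in the pulldown differed between the ER and the cap-binding construct, by a test of the difference itself. The log2 difference of C1 over eIF4E, corrected for input, was 1.49 for ENSG00000244642.3 (SE 0.26; edgeR adjusted p = 0.0053) and 1.47 for ENSG00000239437.3 (SE 0.26; edgeR adjusted p = 0.0049). ENSG00000244642.3 had 69.2 and 103.7 CPM in C1 pulldowns and 407.9 and 329.2 CPM in C1 inputs, where it had 35.7 and 51.8 CPM in eIF4E pulldowns and 461.6 and 588.1 CPM in eIF4E inputs. Its inputs averaged 524.8 CPM for eIF4E and 368.6 CPM for C1, so part of the difference lies in the inputs. For the same ID, C1 over GFP (1.04) and C1 over eIF4A (1.06) did not pass (edgeR adjusted p = 0.31 and 0.16). Over the 17 settings the adjusted p of ENSG00000244642.3 ran from 3.5e-06 to 0.21.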

How the results depend on the processing

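Of 588 values of the 48 log2 fold changes under other settings, 524 kept direction and side of the threshold, 32 newly passed it, 13 no longer passed it and 19 changed sign. In C1 over GFP 3 of 4 7SL IDs were called with no input correction and 0 to 2 with a library left out. In C1 over eIF4E 0 were called with library size in place of TMM, 0 with only the libraries compared and 0 to 2 with a library left out. In C1 over eIF4A 1 was called with no count filter, 2 with no input correction, 2 by DESeq2 and 0 to 2 with a library left out. For T0 pulldown over input 2 were called with library size, where the median of all tested IDs was -1.05. The share of all tested IDs called under these other settings is not given here except where stated, so the counts have no background. For T20 pulldown over input the count was 2 with library size, 1 with no count filter and 2 by DESeq2. For hippuristanol pulldown over input it was 1 in each of these settings, but not the same ID. RN7SL2 was called higher with no count filter and by DESeq2. ENSG00000244642 was called lower with library size, where the median of all tested IDs was -0.83. For T20 over T0 in pulldowns it was 2 with no count filter and 1 by DESeq2. Without the 10 highest other IDs in the total, the 7SL share was 0.0399% in naive pulldowns and 0.230% in naive inputs. With library size the sign turned for RN7SL3 in C1 pulldown over input (0.11, where the median of all tested IDs was 0.18), RN7SL2 in eIF4A pulldown over input (0.26, median 0.82), RN7SL2 in C1 over eIF4A (-0.50, median -0.68), RN7SL2 in T20 pulldown over input (-0.19, median -0.55) and RN7SL3 in hippuristanol pulldown over input (-0.37, median -0.83). With the replicate block RN7SL2 in T20 pulldown over input was -0.015, and the block changed no count of calls. With the T0 input numbers crossed, a block chosen after seeing the data and fitted on the 4 libraries compared, T20 over T0 in inputs had 2 of 4 7SL IDs and 2069 of 16825 IDs called. With libraries left out in turn, RN7SL3 ran from -0.24 to 0.058 in C1 pulldown over input, from -1.62 to 0.43 in T0 pulldown over input and from -0.75 to 0.64 in hippuristanol pulldown over input. RN7SL2 ran from -0.39 to 0.45 in C1 over eIF4A and from -0.58 to 1.10 in T20 pulldown over input. For T20 over T0 in inputs the ranges were -1.68 to 0.53 for RN7SL2, -1.56 to 0.39 for RN7SL3, -1.56 to 0.49 for ENSG00000244642 and -1.55 to 0.51 for ENSG00000239437. The cause of these changes was not tested, except that a fit with a library left out or with only the libraries compared has fewer samples. Naive values of RN7SL2 and RN7SL3 rest on 13 to 93 counts a library.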

Other observations

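The ratio of counts of ENSG00000244642 to those of ENSG00000239437 was 1.07 in the T4 input, where the other 36 libraries held 1.17 to 1.46. The T4 input had 19373 counts of the first ID and 18114 of the second, and the group has no second library.

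Over the 17 stress libraries RN7SL2 correlated at 0.32 and 0.35 with the 2 pseudogene IDs and at 0.55 with RN7SL3, where the pseudogene IDs correlated at 0.998 with each other. Within the 9 stress pulldowns RN7SL2 correlated at 0.92 with both pseudogene IDs, and within the 8 stress inputs at 0.96. These are Pearson correlations of log2 CPM over libraries that share depth and scaling between IDs, given with no p.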
